A study of Homo sapiens with 18 samples.

Results

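Counts of 10 genes that carry glucose into the cell and break it down were followed in RNA-seq of human induced pluripotent stem cells with and without PCGF6. The genes were taken by name from a count table of 57133 genes: the glucose transporters SLC2A1 and SLC2A3, the enzymes HK1, HK2, GPI, PFKP, PFKL and PKM of glycolysis, and the lactate dehydrogenase subunits LDHA and LDHB. All 10 were in the table and all 10 passed the filter on low counts, which left 17672 genes for testing. The cells were of the PGP1 line, grown in mTeSR1 medium on Matrigel. Sequenced were unedited WT cells and the knockout lines PCGF6-KO clone 1 and clone 2, with 2 libraries of each. PCGF6 is a subunit of the polycomb complex PRC1.6, and both clones were made with CRISPR-Cas9 aimed at its first exon, where both alleles carry a deletion that differs in size between the clones. Each knockout line came from 1 clone, so the effect of the knockout and the history of a clone cannot be told apart within a line, and nothing says whether replicates of a group were separate cultures. P-values therefore measure the spread between these libraries, which may be technical. The ChIP-seq samples of the series were not analysed here.

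Glycolysis turns glucose into pyruvate in the cytosol and yields ATP without oxygen. Glucose enters through facilitative transporters of the SLC2A (GLUT) family, is trapped by a hexokinase, is committed to the pathway by phosphofructokinase, and leaves as pyruvate, made by pyruvate kinase. Lactate dehydrogenase reduces pyruvate to lactate and so returns the cofactor that glycolysis needs. Several steps are shared by isozymes, products of separate genes with the same reaction. Pluripotent stem cells are known for a high rate of glycolysis with release of lactate, and the mix of isozymes shifts as cells leave pluripotency.

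The libraries held between 15877396 and 18918609 counts in genes. PCGF6 itself was still counted in the knockout. WT had 268 and 300 counts of it, while clone 1 had 99 and 103 and clone 2 had 187 and 159. In the pooled comparison of knockout with WT its log2 fold change was -1.15 (SE 0.27, edgeR quasi-likelihood adjusted p = 0.00914), and clone 2 lay 0.90 above clone 1 (SE 0.15, adjusted p = 5.4e-05). The deletions lie in the first exon and the counts cover all exons, so these values do not measure intact PCGF6. The paper reports that its own checks of DNA, RNA and protein bore out the knockout. Protein was not measured here. The label of pluripotent cells was checked on 12 markers. Their summed level ran from 11716 to 12198 CPM (counts scaled to the size of the library, with TMM) in WT, 10126 to 10213 in clone 1 and 9143 to 9440 in clone 2, with POU5F1 at 1492 to 1499 CPM in WT and 1416 to 1625 CPM in PCGF6-KO. Of the 12, 3 were called lower in the knockout (SOX2, ZFP42 and DNMT3B), 25%, and 0 higher, under the rule given below. On the adjusted p alone 3 more were lower and 2 higher. Over all tested genes 23.6% were called, 14.9% higher and 8.7% lower, and 37.1% passed the adjusted p alone. Markers of other cell types moved as well. Of 9 tested mesendoderm markers 9 were called higher (summed level 5.93 to 7.06 CPM in WT, with MESP1 and SOX17 at 0 counts, and 638 to 785 CPM in PCGF6-KO). Of 10 lateral and cardiac mesoderm markers 9 were called higher (161 CPM in both WT libraries, with HAND1, HAND2 and NKX2-5 at 0 counts, and 664 to 876 CPM in PCGF6-KO), and of 8 fibroblast or stroma markers 7 were called higher and 1 lower (850 to 861 CPM in WT, with LUM and DCN at 0 counts, and 1747 to 2066 CPM in PCGF6-KO). Neuroectoderm markers summed to 94.5 to 96.3 CPM in WT, with HES5 at 0 counts, and to 52.2 to 58.1 CPM in PCGF6-KO, where 2 of 5 tested (LHX2 and ZIC1) were called higher and 1 (OTX2) lower. These shifts moved with every difference between WT and PCGF6-KO given here, and their part in those differences was not tested. In bulk RNA, a change in the share of cells of a type and a change in RNA per cell cannot be told apart.

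The promoters of the members were read for motifs, because MAX and E2F6 are DNA-binding subunits of PRC1.6, and MYC, the partner of MAX, and the hypoxia-inducible factors are known to act at glycolytic genes. RefSeq promoter windows (GRCh38.p14, 250 bases before to 50 after a start site) were matched for 9 of the 10 members, in 20 windows. SLC2A3 had none. Searched on both strands were the E-box CACGTG, the hypoxia response cores ACGTG and GCGTG, and the E2F6 motif GCGGGAA. Any CACGTG also counts as an ACGTG, on each strand. Shown are the windows of SLC2A1 and PKM, both windows of HK2, and the first of the 2 windows of LDHA. The E-boxes lie in the second HK2 window and in this LDHA window. The windows of SLC2A1 and PKM, which rose, hold none, and neither do those of HK1, GPI, PFKP, PFKL and LDHB, which were not called. Whether a motif bears on the level of a gene was not tested. The other LDHA window held 1 GCGGGAA and 1 GCGTG and no E-box. Each is printed along its gene's own strand with the matches to any of these motifs, on either strand, in capitals.
SLC2A1, chr1:42958819-42959118, minus strand: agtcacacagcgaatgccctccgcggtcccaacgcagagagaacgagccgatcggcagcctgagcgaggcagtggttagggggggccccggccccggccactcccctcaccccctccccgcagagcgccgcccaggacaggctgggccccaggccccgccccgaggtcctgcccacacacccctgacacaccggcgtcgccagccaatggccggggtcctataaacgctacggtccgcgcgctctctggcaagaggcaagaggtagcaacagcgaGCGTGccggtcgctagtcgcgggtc
PKM, chr15:72231141-72231440, minus strand: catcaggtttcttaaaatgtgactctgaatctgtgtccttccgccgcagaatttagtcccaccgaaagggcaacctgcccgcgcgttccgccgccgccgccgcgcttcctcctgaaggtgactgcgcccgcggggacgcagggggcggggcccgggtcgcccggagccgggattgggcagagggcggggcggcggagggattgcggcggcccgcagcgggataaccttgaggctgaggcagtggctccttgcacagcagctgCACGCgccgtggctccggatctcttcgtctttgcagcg
HK2, chr2:74833877-74834176, plus strand: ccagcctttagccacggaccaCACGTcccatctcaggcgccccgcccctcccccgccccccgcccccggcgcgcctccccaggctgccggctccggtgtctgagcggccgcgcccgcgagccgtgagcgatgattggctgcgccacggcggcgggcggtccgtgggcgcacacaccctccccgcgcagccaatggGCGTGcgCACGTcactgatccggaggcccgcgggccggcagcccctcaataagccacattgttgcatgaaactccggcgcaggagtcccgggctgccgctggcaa
HK2 downstream start, chr2:74834920-74835219, plus strand: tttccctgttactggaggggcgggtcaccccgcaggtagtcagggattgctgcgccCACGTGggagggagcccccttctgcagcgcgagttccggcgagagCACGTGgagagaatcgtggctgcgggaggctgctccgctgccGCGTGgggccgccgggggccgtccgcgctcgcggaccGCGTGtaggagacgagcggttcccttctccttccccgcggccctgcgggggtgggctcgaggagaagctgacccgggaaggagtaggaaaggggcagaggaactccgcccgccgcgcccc
LDHA, chr11:18394313-18394612, plus strand: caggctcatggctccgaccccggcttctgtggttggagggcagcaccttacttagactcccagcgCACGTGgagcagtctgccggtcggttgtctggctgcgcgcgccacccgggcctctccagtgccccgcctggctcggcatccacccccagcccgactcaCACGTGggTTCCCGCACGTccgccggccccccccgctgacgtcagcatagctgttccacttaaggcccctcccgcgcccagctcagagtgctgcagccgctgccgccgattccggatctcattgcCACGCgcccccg

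The windows of SLC2A1 and PKM held 1 GCGTG each, 25 and 12 bases after the start site, and none of the other motifs. CACGTG was found in windows of 2 members, HK2 (at -194 and -149 of its downstream start) and LDHA (at -185 and -87). Over all 35116 windows, 7.26% held it. ACGTG was found for 4 members (21.4% of all windows), GCGTG for 8 (36.5%), and GCGGGAA for LDHA and PFKL (6.55%). Most genes have 1 window and HK1 has 7, so counts of members are not on the footing of these shares (per gene, 8.77%, 24.9%, 40.6% and 7.82%). A match is a description of letters, and its absence says only that the letters are not in the window.

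In PCGF6-KO (4 libraries of both clones) against WT (2 libraries), 3 of the 10 members rose and 0 fell. A gene was called when its edgeR quasi-likelihood adjusted p was below 0.05 and its absolute log2 fold change was over 0.6. These are the thresholds in the methods of the study, whose results section states a slightly lower fold cutoff. Over all tested genes the same rule called 23.6%, 14.9% of them higher and 8.7% lower. The 3 members were both glucose transporters, SLC2A1 (2.49-fold) and SLC2A3 (1.99-fold), and the last enzyme before pyruvate, PKM (1.71-fold). Another 4 members passed the adjusted p but not the fold (HK1 and PFKL higher, HK2 and GPI lower), against 37.1% of all genes that passed the adjusted p alone, and PFKP, LDHA and LDHB passed neither. The median log2 fold change was 0.36 over the members and 0.00 over all tested genes. It was -0.02 over the 14 other glycolytic enzymes tested and -0.06 over the 9 other glucose carriers tested. The members were chosen with earlier results of these data known, so their median does not stand for the pathway. In 8 of the members the WT and PCGF6-KO libraries did not overlap, as was so for 57.1% of tested genes: 6 lay above WT (29.5% of all genes) and 2 below (27.6%). The members together took 0.383% and 0.387% of the counts of the WT libraries. Their summed share was 0.542% and 0.553% for clone 1 and 0.566% and 0.575% for clone 2. Most of these counts were of SLC2A1, SLC2A3 and PKM, so the sum mainly follows those 3 genes.

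**Figure D1:**
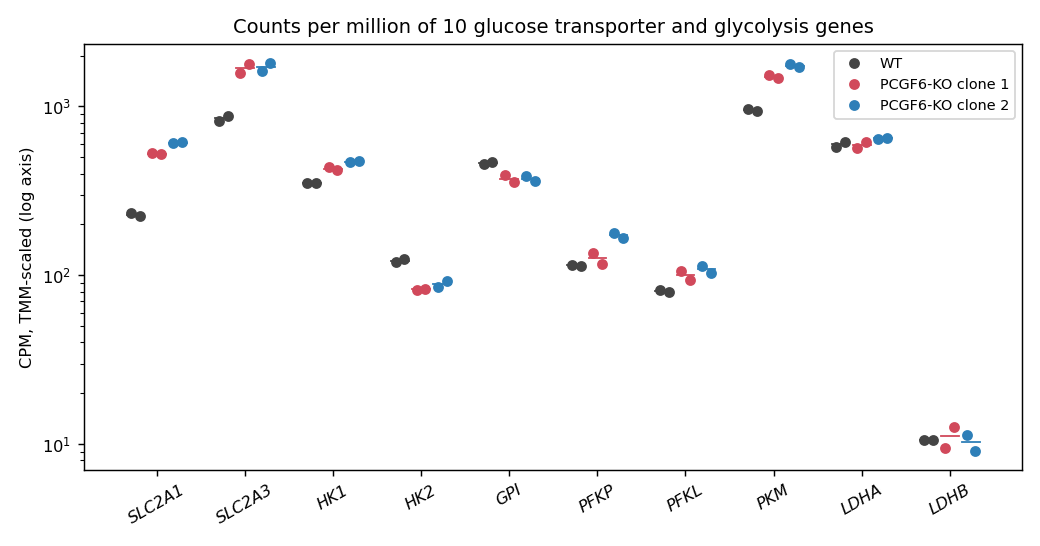
CPM after TMM scaling (log axis) of the 10 members in each of the 6 libraries. Points are libraries, short lines are group means, grey is WT, red is PCGF6-KO clone 1 and blue is clone 2. The SLC2A1, SLC2A3 and PKM points of both clones sit well above WT, the HK2 and GPI points sit below WT, and the LDHA and LDHB points overlap WT.

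SLC2A1 (GLUT1; GRCh38 chromosome 1, 42925353 to 42958893, minus strand, 10 exons in its reference transcript) is the basal glucose transporter of most cells. It stood at 233 and 224 CPM in WT, 527 and 524 CPM in clone 1, and 605 and 616 CPM in clone 2. All 4 PCGF6-KO libraries were above both WT libraries, and the clones did not overlap either. Its log2 fold change against WT was 1.31 (SE 0.09, adjusted p = 7.0e-06). Clone 2 was above clone 1 by 0.22 on the log2 scale (SE 0.05, adjusted p = 0.0042), under the fold threshold. Genes on the opposite strand cover 7.5% of its exon bases, as they do 7.1% of PFKM, 7.6% of PDHB and 5.2% of SLC16A3 below. The strand setting of the counting is not given in the sources used here.

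SLC2A3 (GLUT3; chromosome 12, 7919230 to 8019007, minus strand, 10 exons) is a transporter with a high affinity for glucose, best known from neurons. It stood at 823 and 875 CPM in WT, 1583 and 1772 CPM in clone 1, and 1611 and 1799 CPM in clone 2. The lowest PCGF6-KO library lay above the highest WT library, and the clones overlapped. Against WT the log2 fold change was 0.99 (SE 0.08, adjusted p = 1.5e-05), and the clones differed by 0.02 (95% interval -0.09 to 0.14). SLC2A14, a near-identical copy with which it can share reads, had 22 to 56 counts a library where SLC2A3 had 13395 to 32212.

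At the hexokinase step the isozymes went opposite ways in level. HK1 (chromosome 10, 69269984 to 69401884, plus strand, 18 exons) encodes the hexokinase found in most tissues. Its level was 354 and 352 CPM in WT, 436 and 420 CPM in clone 1, and 467 and 473 CPM in clone 2, a log2 fold change of 0.35 (SE 0.07, adjusted p = 0.00357). Every PCGF6-KO library was above WT and the size was under the threshold. HK2 (chromosome 2, 74834127 to 74893359, plus strand, 18 exons), the inducible isozyme of muscle and of highly glycolytic cells, stood at 119 and 124 CPM in WT, 82.2 and 83.2 CPM in clone 1, and 85.6 and 92.1 CPM in clone 2. All PCGF6-KO libraries were below WT, with a log2 fold change of -0.51 (SE 0.07, adjusted p = 0.000443).

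GPI (chromosome 19, 34359480 to 34402413, plus strand, 18 exons) converts glucose phosphate into fructose phosphate. It was 455 and 466 CPM in WT, 391 and 355 CPM in clone 1, and 387 and 361 CPM in clone 2, lower in each PCGF6-KO library. The log2 fold change was -0.30 (SE 0.06, adjusted p = 0.0050), and without WT replicate 2 the adjusted p was 0.0676. Exons of an overlapping gene on the same strand cover 13.1% of its reference transcript.

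The phosphofructokinases catalyse the committed step. PFKP (chromosome 10, 3066333 to 3137718, plus strand, 22 exons), the platelet isozyme, stood at 115.5 and 113.3 CPM in WT, 136.4 and 116.1 CPM in clone 1, and 178 and 167 CPM in clone 2. The lower clone 1 library lay next to WT, and clone 2 stood apart from both. Pooled, the log2 fold change was 0.38 (SE 0.15, adjusted p = 0.082). It was 0.14 in clone 1 (SE 0.07, adjusted p = 0.109) and 0.59 in clone 2 (SE 0.07, adjusted p = 9.6e-08), just under the threshold. The change in clone 2 was 1.51-fold, over the fold cutoff in the results section of the study. The difference between the clones, 0.45 (SE 0.07, adjusted p = 3.4e-05), was the largest of any member. PFKL (chromosome 21, 44300051 to 44327376, plus strand, 22 exons), the liver isozyme, was 81.4 and 79.5 CPM in WT, 105 and 94.2 CPM in clone 1, and 114 and 103 CPM in clone 2. Each PCGF6-KO library was above WT, and the log2 fold change was 0.37 (SE 0.08, adjusted p = 0.0071, and 0.0594 or 0.0757 without WT replicate 1 or 2).

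PKM (chromosome 15, 72199029 to 72231819, minus strand, 11 exons) encodes the muscle pyruvate kinase and, by a choice between alternative exons, both the M1 and the M2 form, which counts per gene do not separate. It stood at 966 and 934 CPM in WT, 1526 and 1467 CPM in clone 1, and 1772 and 1719 CPM in clone 2. The 3 groups did not overlap. Against WT the log2 fold change was 0.77 (SE 0.09, adjusted p = 0.000173), and clone 2 was above clone 1 by 0.22 (SE 0.05, adjusted p = 0.0018). PKLR, the gene of the liver and red cell pyruvate kinase, was low and fell, with 2.46 and 3.06 CPM in WT and no more than 1.15 CPM in any knockout library (log2 fold change -1.67, SE 0.33, adjusted p = 0.0039, and 0.0548 without WT replicate 2, which ends the call). PKLR lies below the level set for naming genes and was named after its values were seen.

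LDHA (chromosome 11, 18394560 to 18408425, plus strand, 8 exons) encodes the subunit that favours lactate. Its levels were 579 and 613 CPM in WT, 564 and 614 CPM in clone 1, and 638 and 654 CPM in clone 2. WT and clone 1 overlapped, and both clone 2 libraries lay above them. The pooled log2 fold change was 0.05 (SE 0.07, adjusted p = 0.61, 95% interval -0.09 to 0.19). LDHB (chromosome 12, 21635342 to 21757857, minus strand, 8 exons), whose subunit favours pyruvate, stood at 10.6 CPM in both WT libraries, 9.5 and 12.7 CPM in clone 1 and 11.4 and 9.2 CPM in clone 2. The groups overlapped, with a log2 fold change of 0.01 (SE 0.16, adjusted p = 0.95, 95% interval -0.30 to 0.33). LDHB rested on 147 to 231 counts a library, and 76.5% of its reference transcript lies in exons that GENCODE release 44 also gives to a same-strand gene that runs on from it. How reads shared by genes were counted is not given in the sources used here, so the level of LDHB is uncertain.

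**Figure D2:**
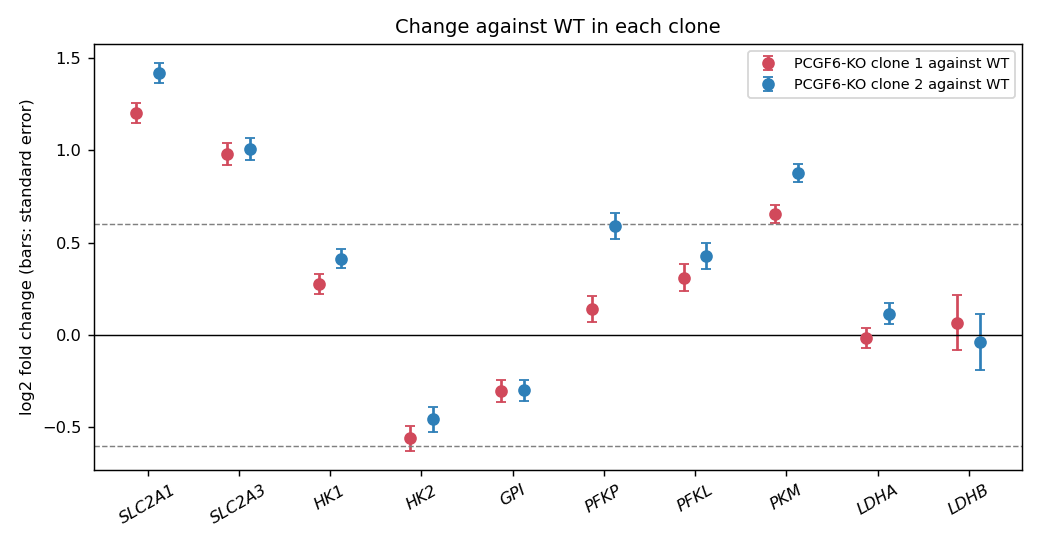
Log2 fold change against WT of each member in clone 1 (red) and clone 2 (blue), with bars of 1 standard error. Dashed lines mark 0.6 and -0.6. SLC2A1, SLC2A3 and PKM lie above the upper line in both clones, and PFKP of clone 2 lies at that line.

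Taken clone by clone, both comparisons used the same WT libraries. In clone 1 against WT 3 members were called higher and 0 lower (24.8% of all genes called, 16% higher and 8.8% lower). In clone 2 against WT the counts were likewise 3 and 0 (29.4%, 16.9% higher and 12.5% lower). With the adjusted p alone 7 members passed in clone 1 and 8 in clone 2, against 45.3% and 50.4% of all genes. The called members were SLC2A1, SLC2A3 and PKM in each. Their log2 fold changes were 1.20, 0.98 and 0.66 in clone 1 and 1.42, 1.01 and 0.88 in clone 2, with standard errors of 0.05 to 0.06. Between the clones 0 members were called by edgeR and 0 by DESeq2, against 7.87% of all genes by edgeR (3.73% higher and 4.14% lower in clone 2). At an adjusted p below 0.05 without the fold threshold, 3 were higher in clone 2 (SLC2A1, PFKP and PKM), against 19.5% of all genes in either direction. PCGF6 was also higher in clone 2.

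Levels of the members were ordered per length, as reads per kilobase of the deposited gene length, scaled as CPM (RPKM). Where CPM or counts of different genes are set side by side elsewhere, they are not divided by length. In WT the order of the means was SLC2A3 at 138 RPKM, PKM 111, LDHA 96.0, HK1 56.1, SLC2A1 48.4, GPI 43.1, PFKP 23.7, HK2 20.1, PFKL 9.01 and LDHB 3.55 RPKM. No neighbours in that order overlapped between the 2 WT libraries. In PCGF6-KO SLC2A3 (275 ± 17.9 RPKM, SD, n = 4) and PKM (189 ± 17.2) stayed at the head, and SLC2A1 (120.2 ± 10.4) stood above LDHA (99.5 ± 6.30) and HK1 (71.3 ± 4.05). GPI (35.0 ± 1.68) and PFKP (30.9 ± 5.85) overlapped there. HK2 was at 14.1 ± 0.73, PFKL at 11.6 ± 0.90 and LDHB at 3.58 ± 0.56 RPKM. Among the 17672 tested genes SLC2A1 ranked 804 by this level in WT and 260 in PCGF6-KO, SLC2A3 180 and 77, and PKM 257 and 128. HK2 ranked 2321 and 3357. The length is that of all annotated exons of a gene, not of the transcripts in use, so the order is approximate.

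The mix of isozymes was expressed as each gene's share of the reads per kilobase of its family. With 2 against 4 libraries there are 15 splits, and the exact two-sided permutation test cannot give a p below 0.133. The test treats the libraries as exchangeable, although they come 2 each from WT, clone 1 and clone 2. HK2 made up 25.9% and 26.8% of HK1 plus HK2 in WT, against 16.4% and 17.1% for clone 1 and 16.0% and 16.8% for clone 2. All PCGF6-KO libraries were lower, and the difference of the means was -9.83 percentage points (exact permutation p = 0.133). SLC2A3 made up 73.0% and 75.0% of the transporter pair in WT. Clone 1 had 69.7% and 72.2% and clone 2 had 67.1% and 69.2%, so the means differed by -4.46 points (exact permutation p = 0.133). It remained the larger of the pair in all 6 libraries.

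For phosphofructokinase the muscle isozyme PFKM was added. PFKP made up 52.8% and 53.3% of the 3 genes in WT, against 55.9% and 53.9% for clone 1 and 63.1% and 63.9% for clone 2. PFKM made up 27.0% and 26.4% of them in WT, while clone 1 had 20.7% and 22.5% and clone 2 had 15.0% and 14.7%. The differences of PCGF6-KO from WT were 6.14 points for PFKP and -8.50 points for PFKM (exact permutation p = 0.133 each), and 2.35 points for PFKL. As a level, PFKM was 89.5 and 84.9 CPM in WT, 76.2 and 73.2 CPM in clone 1 and 64.2 and 58.1 CPM in clone 2 (log2 fold change -0.36, SE 0.11, adjusted p = 0.028). LDHA made up 95.9% to 97.2% of LDHA plus LDHB in all 6 libraries, with a difference of 0.09 points (exact permutation p = 0.80), a share that carries the uncertainty of LDHB.

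**Figure D3:**
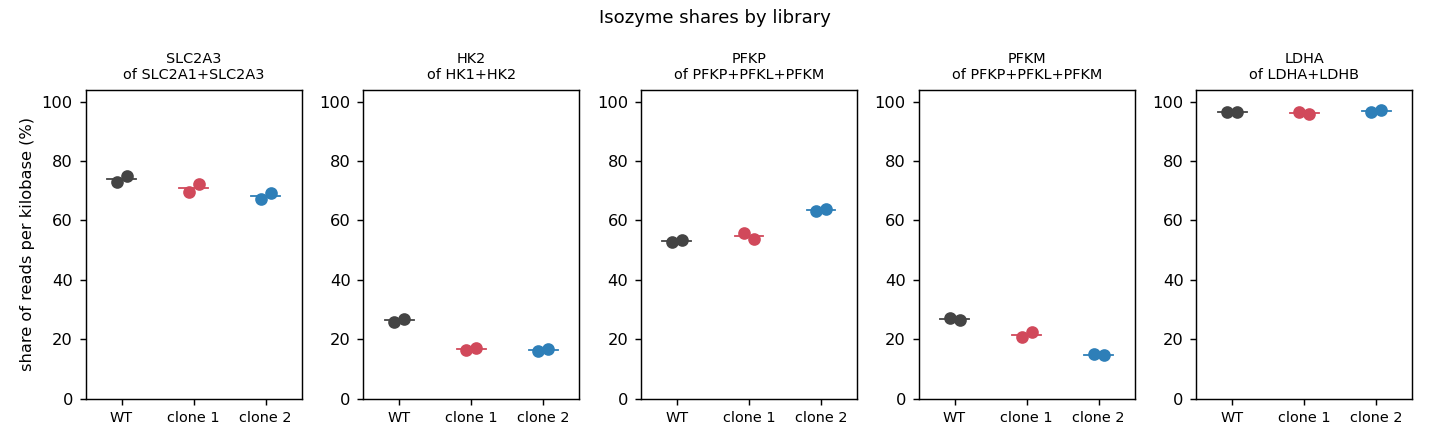
Share of reads per kilobase (percent) taken by 1 isozyme of its family in each library, with group means as lines. HK2 takes 25.9% and 26.8% of the hexokinase reads in WT and 16.0% to 17.1% in both clones, while PFKP and PFKM move furthest in clone 2 and LDHA keeps over 95% throughout.

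The rest of the pathway was described from lists of textbook members. Over 8 lists 88 genes were tested, of which 12 rose and 2 fell (15.9%, against 23.6% of all tested genes, 14.9% higher and 8.7% lower). Their median log2 fold change was 0.05. On the adjusted p alone another 7 were higher and 12 lower, and 37.1% of all tested genes passed that threshold. Of 9 other glucose carriers 0 rose and 1 fell. It was SLC2A4 (GLUT4), the transporter that insulin moves to the surface of muscle and fat cells, at 6.45 and 6.41 CPM in WT against 2.87 to 4.55 CPM in the knockout (log2 fold change -0.74, SE 0.20, adjusted p = 0.020). Without WT replicate 1 or 2 the adjusted p of SLC2A4 was 0.111 or 0.115, and the call was lost. Of 14 other glycolytic enzymes 0 rose and 1, PKLR, fell. On the adjusted p alone 1 more was higher and 4 more were lower. GAPDH, ENO1, TPI1 and PGK1, which are abundant, changed by less than the fold threshold. GAPDH lay below WT and ENO1 above WT in every knockout library, and TPI1 and PGK1 overlapped WT. GAPDH was 4233 and 4349 CPM in WT and between 3426 and 3903 CPM in the knockout (log2 fold change -0.21, adjusted p = 0.031), ENO1 1561 and 1565 against 1626 to 1986 CPM (0.22, adjusted p = 0.070), TPI1 788 and 791 against 744 to 811 CPM (-0.03, adjusted p = 0.72), and PGK1 278 and 280 against 254 to 296 CPM (-0.02, adjusted p = 0.88). ALDOA had only 6.82 to 11.9 CPM, and 89.8% of its reference transcript is shared with another same-strand gene, so its level is as uncertain as that of LDHB. These 5 enzymes were named after their values were seen.

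Of 9 genes that switch glycolysis on or off 1 rose and 0 fell (11.1%, against 23.6% of all tested genes called and 14.9% called higher). It was PFKFB3, whose enzyme makes the main activator of phosphofructokinase. It stood at 46.3 and 49.5 CPM in WT, 73.4 and 75.9 CPM in clone 1, and 77.3 and 78.5 CPM in clone 2 (log2 fold change 0.67, SE 0.07, adjusted p = 9.9e-05). Of 19 genes of lactate and pyruvate fate 3 rose and 0 fell (15.8%, against 23.6% of all tested genes called and 14.9% called higher). SLC16A3 (MCT4), an exporter of lactate, was at 1.66 and 2.16 CPM in WT and between 7.29 and 9.13 CPM in the 4 knockout libraries (log2 fold change 2.16, SE 0.20, adjusted p = 5.2e-05), a low level beside 438 to 666 CPM of SLC16A1 (MCT1) over the 6 libraries. PDK1, a kinase that turns pyruvate dehydrogenase off, was at 87.1 and 88.7 CPM in WT, 209 and 224 CPM in clone 1 and 243 and 259 CPM in clone 2 (log2 fold change 1.41, SE 0.09, adjusted p = 6.8e-06). PDHB, a subunit of pyruvate dehydrogenase itself, also rose, from 89.8 and 84.5 CPM to 162 and 152 CPM in clone 1 and 188 and 192 CPM in clone 2 (log2 fold change 0.99, SE 0.11, adjusted p = 0.000124). The subunit PDHA1 did not pass the test (127 and 134 CPM in WT, 127 to 133 CPM in the knockout, adjusted p = 0.96). SLC16A1 and PDHA1 were named after their values were seen. In gluconeogenesis (3 genes tested) and the pentose phosphate branch (7 genes tested) edgeR called 0 genes, and 1 and 3 of them had an adjusted p below 0.05, all lower in PCGF6-KO, where 37.1% of all tested genes had one in either direction.

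Of 19 hypoxia factors and hypoxia targets outside glycolysis 6 rose and 0 fell (31.6%, against 23.6% of all tested genes called and 14.9% called higher). NDRG1, a stress-response gene, had 4.79 and 3.96 CPM in WT, while clone 1 reached 15.8 and 15.3 CPM and clone 2 reached 24.8 and 24.2 CPM (log2 fold change 2.20, SE 0.26, adjusted p = 0.000224). DDIT4, an inhibitor of mTORC1 signalling, was at 1.11 and 1.68 CPM in WT and 3.91 to 4.30 CPM in PCGF6-KO (1.53, SE 0.24, adjusted p = 0.0011). EPAS1, which encodes HIF-2alpha, rose by 1.01 (SE 0.24, adjusted p = 0.0095, and 0.0723 or 0.0801 without WT replicate 1 or 2) and BNIP3, a mitophagy receptor, by 0.92 (SE 0.08, adjusted p = 2.3e-05). P4HA1 and EGLN1 were the others, and EGLN1 had an adjusted p of 0.0626 without WT replicate 2. HIF1A itself was at 462 and 481 CPM in WT and between 444 and 473 CPM in the knockout (log2 fold change -0.03, adjusted p = 0.68), and VEGFA, a classical target, at 39.4 and 37.8 against 35.8 to 38.1 CPM (-0.06, adjusted p = 0.56). P4HA1, EGLN1, HIF1A and VEGFA were named after their values were seen.

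Of 8 genes of the MYC network 2 rose and 0 fell (25%, against 23.6% of all tested genes called and 14.9% called higher). MYC, a transcription factor known to drive many glycolytic genes, was at 139 and 144 CPM in WT, 236 and 217 CPM in clone 1 and 248 and 265 CPM in clone 2 (log2 fold change 0.78, SE 0.08, adjusted p = 0.000134). Its relative MYCL was at 12.6 and 11.3 CPM in WT and 22.2 to 25.1 CPM in PCGF6-KO (0.99, SE 0.10, adjusted p = 0.000104).

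**Figure D4:**
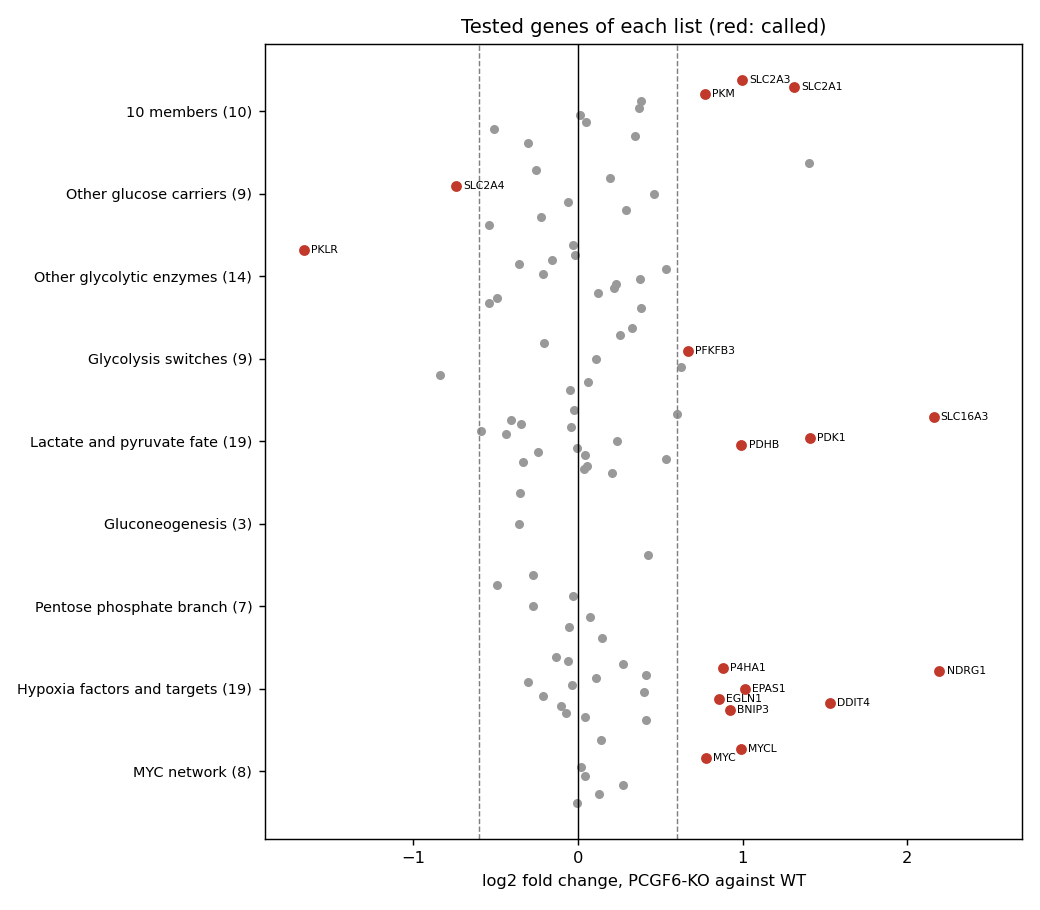
Log2 fold change in PCGF6-KO against WT of each tested gene, by list, with the number tested in brackets. Red points were called and are named, grey points were not, and dashed lines mark 0.6 and -0.6. Called genes lie mainly on the right, among the members, the lactate and pyruvate genes, the hypoxia targets and the MYC network, and most glycolytic enzymes lie between the dashed lines.

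The genes nearest in profile to each called member were sought among 10516 genes outside the lists with an average log2 CPM of at least 3. Likeness was the root mean square distance between log2 CPM over the 6 libraries, each centred on its own mean. Nearest to SLC2A1 were CFLAR (distance 0.038), SLC35F6 (0.040) and AC064802.1 (0.044), with log2 fold changes of 1.34, 1.36 and 1.30 in PCGF6-KO. SLC2A3 lay nearest to CCND2 (0.029), MAP1A (0.032) and KLF7 (0.034), whose log2 fold changes were 0.97, 1.00 and 0.96. For PKM they were NXN (0.025), MYL12A (0.029) and CREB3L1 (0.035), at 0.79, 0.74 and 0.74. With 6 libraries in 3 groups, many genes share a profile of this kind.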

How the data were processed

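RNA-seq of PGP1 cells was aligned by the authors to GRCh38 with HISAT2 2.1.0 and counted per gene with featureCounts, and the table was deposited as raw counts beside each gene's exon length. Strand setting, annotation release and the treatment of reads shared by genes are not given in the sources used here. Groups followed the labels. The members and lists were chosen with earlier results of these data known. Genes were filtered with filterByExpr, scaled by TMM and tested with the quasi-likelihood test of edgeR 4.0.16 in R 4.3.3, with Benjamini-Hochberg adjustment over all 17672 tested genes. PCGF6-KO against WT used 2 groups, and comparisons of clones used a fit of 3 groups. The standard error was taken from the F statistic, and 95% intervals are 1.96 standard errors either side. Calls needed an adjusted p below 0.05 with a log2 fold change beyond 0.6 in either direction, as in the authors' methods. CPM and RPKM were computed from the counts. On simulated counts with 200 changed genes, PCGF6-KO against WT called 197 of them and 4 others of 17383 genes, clone 1 against WT 188 and 18 others of 17419, clone 2 against WT 192 and 8 others of 17396, and clone 2 against clone 1 188 and 6 others of 17383. The smallest simulated shifts were larger than the changes of all members except SLC2A1 and, in clone 2, SLC2A3 (1.01). All shifts were set in well-counted genes. Every gene had the same spread, and in the pooled comparison both clones had the same shift. The simulation therefore checks the code and does not give error rates for the members.

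Named were the members, PCGF6, PFKM, up to 4 called genes per direction and list with an average log2 CPM of at least 1, and 3 nearest genes per called member. Replicate counts differed by more than sampling noise (chi-square per degree of freedom 2.40, 4.50 and 3.21), so each library counted once. Counts in a library limit its precision, and LDHB with 147 to 231 counts is the least precise member. The alternatives were RLE and upper-quartile scaling, 2 other filters, DESeq2 1.42.0, a replicate block, the adjusted p alone, averaging both clones, fitting just the groups compared, shares without length and each library left out. Positions come from GENCODE release 44.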

Additional observations from a re-analysis of the deposited data

Results flagged for a closer look

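The clones differed from each other in 3 members by edgeR's test of the difference itself (adjusted p below 0.05). PFKP was 0.45 higher in clone 2 than in clone 1 on the log2 scale, PKM 0.22 higher and SLC2A1 0.22 higher (differences of 0.449, 0.222 and 0.215 before rounding to 2 decimals). Over the alternatives the adjusted p of these differences reached at most 0.00083 for PFKP, 0.021 for PKM and 0.041 for SLC2A1. With a replicate block, HK1 (adjusted p = 0.0138) and LDHA (adjusted p = 0.0126) also passed between the clones, at differences of 0.14 and 0.13, and LDHA did so without clone 1 replicate 2 (adjusted p = 0.0159). Both libraries of clone 2 were above both libraries of clone 1 in each of the 3 genes. Among the 4 PCGF6-KO libraries no member had a library that stood apart by Dixon's criterion for groups of 4 at the 95% level (largest gap over range 0.651, for HK2).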

How the results depend on the processing

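The member counts (3, 3, 3 and 0 called in PCGF6-KO, clone 1, clone 2 and between clones) kept their values under the alternatives run, with 2 exceptions. On the adjusted p alone they became 7, 7, 8 and 3, and the pathway lists went from 14 to 33 called genes (19 higher and 14 lower). In clone 2 the count was 4 when every library had to hold at least 10 counts, with only the 2 groups compared, without WT replicate 1 and without clone 2 replicate 2, as PFKP passed 0.6 there. Leaving out a library gave 10 to 17 called pathway genes. Without WT replicate 2 the calls of SLC2A4, PKLR, EPAS1 and EGLN1 were lost (10 higher, 0 lower), and without WT replicate 1 those of SLC2A4 and EPAS1. The pooled fold of PFKP had an adjusted p from 2.0e-05 (mean of the clones) to 0.27 (without WT replicate 2), and HK1 passed the adjusted p in each. Of the isozyme shares, that of PFKL moved, from 2.35 to 3.89 points without division by length, and that of LDHA ran from -0.13 to 0.30 points when a library was left out. Over all genes the adjusted p alone called 6556 for 4167 (PCGF6-KO), 8002 for 4379 (clone 1), 8904 for 5197 (clone 2) and 3442 for 1390 (between clones), where DESeq2 called 810.

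The labels do not say whether equal replicate numbers pair the libraries, and the main fits did not pair them. Differences between replicates correlated over 12963 genes at r = 0.09 for WT with each clone and 0.23 between the clones. With a replicate block the member counts were 3, 3, 3 and 0 (HK1 and LDHA then also passed the adjusted p alone between clones), the pathway count was 14, and all-gene calls in PCGF6-KO went from 4167 to 3876.

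Both WT libraries enter every comparison with WT, and with 2 against 4 libraries no single share can pass the exact test.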
